A study of Mus musculus with 4 samples.

Results

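The heat-shock chaperone genes Hspa1a, Hspa1b, Hsph1, Hspa8, Dnajb1, Hspb1, Hsp90aa1, Hspd1 and Hspe1 were followed by name through single-cell RNA libraries of mouse limb bone marrow; they are 9 of the 32285 genes in the count matrices. The mutant mice are labelled Prx1-cre;Mettl3-fl/fl, in which Cre driven by Prx1, a promoter active in limb mesenchyme, removes the floxed Mettl3 gene for the catalytic subunit of the enzyme that writes N6-methyladenosine on RNA. The control mice are labelled only as control, without their alleles. All were C57BL/6 mice at postnatal day 12, and live (Calcein-AM-positive, DAPI-negative) cells negative for CD45 and Ter119, which mark blood cells, were collected by sorting 3 mutant and 3 control mice. The series has 4 libraries, named mutant 1, mutant 2, control 1 and control 2; the label of mutant 2 gives its genotype only as mutant. The labels do not say which mice went into which library, and p-values therefore measure the spread between libraries alone, which may be technical. Batch was inferred from the version of the counting software in the submitters' processing notes. By it, batch 1 holds mutant 1 and control 1, and batch 2 holds mutant 2 and control 2. The question put to these genes was in which cell classes of the same libraries they differed between genotypes: mesenchymal cells, where Cre is active, or also endothelial and blood cells.

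Heat-shock proteins bind unfolded proteins and keep them from aggregating or help them fold. When unfolded proteins build up, through heat, toxins or tissue handling, the transcription factor HSF1 binds inverted repeats of GAA in the promoters of these genes, called heat-shock elements, and transcription rises within minutes. The genes do not depend on HSF1 alike: Hspa1a and Hspa1b are nearly silent in unstressed cells of many types and strongly inducible, while Hspa8, Hsp90aa1, Hspd1 and Hspe1 are also used in normal growth.

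The genes are given here by role, with positions in mm10 from GENCODE M21. Hspa1a (chr17:34969190-34972156, minus strand) and Hspa1b (chr17:34956436-34959238, minus strand) encode the inducible HSP70, which binds exposed hydrophobic stretches of client proteins. Hspa8 (chr9:40800984-40810087) encodes the constitutive member of the same family, HSC70. Hsph1 (chr5:149614287-149636376) encodes HSP110, a nucleotide exchange factor for HSP70, and Dnajb1 (chr8:83608193-83612653) an HSP40 that delivers clients to it. Hspb1 (chr5:135887919-135889563) encodes a small heat-shock protein that holds unfolded clients without using ATP. Hsp90aa1 (chr12:110690605-110702728) encodes the inducible cytosolic HSP90, which matures kinases and steroid receptors. Hspd1 (chr1:55077835-55088243, minus strand) and Hspe1 (chr1:55088132-55091307, plus strand) encode the mitochondrial chaperonin HSP60 and its lid, HSP10.

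Promoter windows of 300 bases from RefSeq (GRCm38.p6) were found for 7 of the 9 genes, and are shown for the genes whose bone cell levels differed most and for the chaperonin pair. Capitals mark heat-shock elements, searched on both strands as GAANNTTC or TTCNNGAA; overlapping matches run together. The windows lie at chr17:34972107-34972406 (minus strand) for Hspa1a, chr17:34959189-34959488 (minus strand) for Hspa1b, chr5:135887669-135887968 (plus strand) for Hspb1 and chr1:55087883-55088182 (minus strand) for Hspd1.
Hspa1a: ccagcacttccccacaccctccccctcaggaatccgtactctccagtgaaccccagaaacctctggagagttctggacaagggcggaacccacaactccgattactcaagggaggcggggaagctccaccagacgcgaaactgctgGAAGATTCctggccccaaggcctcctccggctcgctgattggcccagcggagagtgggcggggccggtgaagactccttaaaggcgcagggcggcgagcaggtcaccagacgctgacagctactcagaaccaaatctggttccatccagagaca
Hspa1b: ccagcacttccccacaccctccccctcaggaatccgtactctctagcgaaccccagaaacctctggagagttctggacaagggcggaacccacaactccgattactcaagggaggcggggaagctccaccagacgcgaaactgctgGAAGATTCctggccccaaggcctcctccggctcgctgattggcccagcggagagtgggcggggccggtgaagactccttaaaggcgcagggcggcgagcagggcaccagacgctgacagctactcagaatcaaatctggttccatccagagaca
Hspb1: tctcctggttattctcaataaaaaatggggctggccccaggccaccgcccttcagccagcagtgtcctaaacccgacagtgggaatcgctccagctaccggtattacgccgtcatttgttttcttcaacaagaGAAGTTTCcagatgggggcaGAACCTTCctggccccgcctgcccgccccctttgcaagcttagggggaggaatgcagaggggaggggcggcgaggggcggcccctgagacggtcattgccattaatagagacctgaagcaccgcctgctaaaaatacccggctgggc
Hspd1: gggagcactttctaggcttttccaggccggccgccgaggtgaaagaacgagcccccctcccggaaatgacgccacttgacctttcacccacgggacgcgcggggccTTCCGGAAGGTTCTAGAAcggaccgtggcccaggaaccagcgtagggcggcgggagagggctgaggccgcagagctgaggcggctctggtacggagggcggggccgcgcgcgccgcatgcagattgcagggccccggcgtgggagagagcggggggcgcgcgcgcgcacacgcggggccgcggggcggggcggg

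The Hspa1a and Hspa1b windows were 98.7% identical and differed at 4 of 300 positions, written C44T, T47C, T249G and C276T with the Hspa1a base first and positions counted from 1 at the 5′ end. Each holds 1 element, whose first base lies 104 bases upstream of the transcript start. Hspb1 holds 2, at 117 and 97 bases upstream. The Hspd1 window shown holds 3 overlapping elements. The Hspe1 window (chr1:55087898-55088197, plus strand) reads most of the same DNA from the other strand and so holds the same 3. A further Hspd1 window (chr1:55088194-55088493, minus strand) holds none. It spans the 5′ end of the Hspd1 gene as positioned above, whereas the window shown lies inside the gene. At least 1 element was found in 6 of the 7 genes with a window, against 17.0% of 27025 genes with a window. The longer form of 3 units, GAANNTTCNNGAA or TTCNNGAANNTTC, was found in 3 of the 7 (Hsph1, Hspd1 and Hspe1), against 0.662% of those genes. The Dnajb1 windows hold no match to these letters. A gene was counted when any of its windows held a match, and Hspd1 and Hspe1 were both counted for the same DNA.

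The libraries held 47390414 UMIs (distinct RNA molecules) in mutant 1, 81890483 in mutant 2, 116863081 in control 1 and 114143361 in control 2. Cells kept had 1000 or more UMIs, 500 or more genes and no more than 10% mitochondrial UMIs; they numbered 2628 and 4587 in the mutant libraries and 5808 and 3635 in the control libraries, 16658 in all. Libraries shared 2 to 10 barcodes per pair. Cells were put into classes by 8 markers per class, none of them a chaperone gene, and all 8 bone markers and all 8 erythroid markers were detected in their own class in all 4 libraries. The mutant libraries held 1775 and 1286 bone cells, 58 and 20 stromal cells, 49 and 937 endothelial cells, 88 and 856 erythroid cells, and 194 and 800 neutrophils. The control libraries held 257 and 41 bone cells, 1016 and 49 stromal cells, 31 and 550 endothelial cells, 3717 and 2652 erythroid cells, and 25 and 31 neutrophils. The sort left out cells with CD45 or Ter119, and whether these blood cells carried either on their surface is unknown here. Lepr, the leptin receptor gene that marks marrow stroma, measured 207 and 190.2 CPM in the mutant stromal gate but 1209 and 953 CPM in the control one, so the gate differed between genotypes in a defining marker. Mettl3 itself was at 3.6 and 5.99 CPM in mutant bone cells and at 6.47 and 8.32 CPM in control bone cells; the position of these 3′ reads relative to the deleted part is unknown here, so the level checks no label.

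Over all kept cells, before any gating, Hspa1a and Hspa1b together made up 218 and 509.7 CPM (the UMIs of a gene in the cells summed, scaled to the same total in every library) in mutant 1 and mutant 2, against 71.8 and 5.06 CPM in control 1 and control 2. Both mutant libraries lay above both control libraries. Hspb1 lay likewise, at 31.2 and 9.83 CPM over all mutant cells and 2.49 and 2.02 CPM over all control cells. Hsp90aa1 lay the other way, at 357 and 843 CPM over all mutant cells, against 1229 and 1669 CPM over all control cells. Because the libraries differ so much in which cells they hold, these totals mix level with composition, and the classes are taken in turn below. By the mean over the 4 libraries, Hspa1a was highest in neutrophils, at 915 ± 1118 CPM, followed by stromal cells at 123 ± 231, bone cells at 63.7 ± 45.4, endothelial cells at 33.8 ± 35.1 and erythroid cells at 17.4 ± 14.4 CPM (SD, n = 4). The SD exceeded the mean in neutrophils, stromal cells and endothelial cells, so the order is a description only. Hspb1 was near 0 in blood cells, with a mean of 0.183 ± 0.329 CPM in erythroid cells and 0.886 ± 1.22 CPM in neutrophils, against 36.4 ± 41.1 CPM in endothelial and 23.4 ± 7.76 CPM in stromal cells (SD, n = 4). Hsp90aa1 was highest in erythroid cells, at 1344 ± 408 CPM, and lowest in endothelial cells, at 244 ± 71.1 CPM (SD, n = 4).

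**Figure D1:**
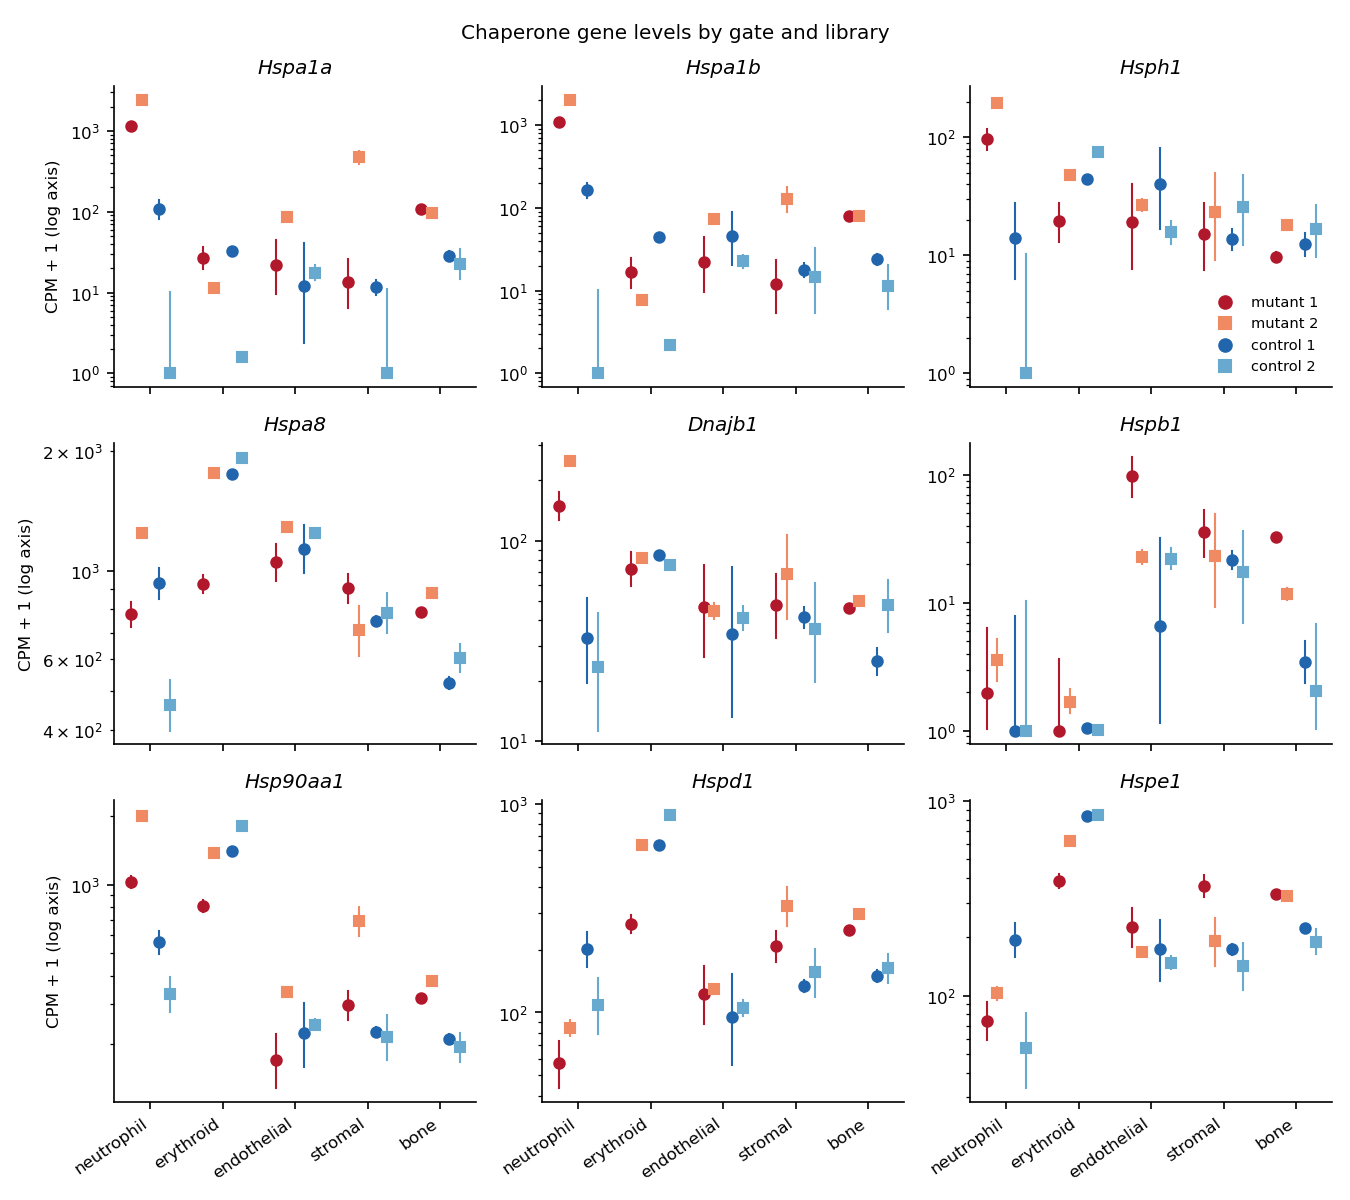
Level of each chaperone gene (CPM + 1, log axis) in 5 cell classes, with mutant libraries in red and orange and control libraries in blue; circles are batch 1, squares batch 2, and bars are exact Poisson 95% intervals that cover counting error only. Hspa1a and Hspa1b stand at 1156 and 2398 CPM and at 1073 and 1976 CPM in mutant neutrophils, and in bone cells both mutant libraries lie above both control libraries for these genes.

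In bone cells, which carry osteoblast and osteocyte markers, Hspa1a, Hspa1b, Hspb1, Hsp90aa1 and Hspd1 were higher in the mutant libraries. These 5 of the 9 genes rose and 0 fell, where 12.4% of the 12860 genes tested rose and 9.22% fell (edgeR's quasi-likelihood test with Benjamini-Hochberg adjustment over all genes, threshold 0.05, with batch as a term). The median log2 fold change was 0.58 over the 9 genes and 0.04 over all genes tested. The fold changes and their standard errors are mutant over control on the log2 scale throughout.

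Hspa1a had 109 CPM in mutant 1 and 96.9 CPM in mutant 2 bone cells, against 27.5 CPM in control 1 and 21.8 CPM in control 2. These rest on 4046 and 2559 UMIs in the mutant libraries and on 170 and 21 UMIs in the control libraries. Hspa1a rose by 1.86 ± 0.23 (SE; edgeR adjusted p = 1.9e-05). Hspa1b had 79.5 and 77.8 CPM in mutant bone cells, against 22.8 and 10.4 CPM in control bone cells, and rose by 1.94 ± 0.26 (SE; edgeR adjusted p = 4.4e-05). For both genes the mutant libraries nearly coincided and no library of one genotype reached the range of the other. The 2 genes are near copies: their annotated transcripts are 85.5% identical over the alignment, and 51.0% over the last 500 bases, where 3′ reads fall, and how the authors' counting split reads between them is uncertain; their sum was 188 and 175 CPM in mutant and 50.3 and 32.3 CPM in control bone cells.

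Hspb1, the small heat-shock protein gene, had 31.8 CPM in mutant 1 and 10.8 CPM in mutant 2 bone cells, against 2.42 and 1.04 CPM in control 1 and control 2. It rose by 3.53 ± 0.37 (SE; edgeR adjusted p = 2.9e-06). The groups did not overlap, but mutant 1 lay well above mutant 2, and control 2 held a single Hspb1 UMI. Without mutant 1 the log2 fold change of Hspb1 was 1.99.

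Among the genes with a role in normal growth the differences were smaller. Hsp90aa1 had 319.6 and 378 CPM in mutant bone cells, against 211 and 194 CPM in control bone cells, and rose by 0.58 ± 0.18 (SE; edgeR adjusted p = 0.027). Hspd1 had 248 and 297 CPM in mutant bone cells, against 149 and 162 CPM in control bone cells, and rose by 0.60 ± 0.18 (SE; edgeR adjusted p = 0.025). Its partner Hspe1 had 331 and 324 CPM in mutant bone cells, against 221 and 188 CPM in control bone cells, and did not pass the test, with a log2 fold change of 0.48 ± 0.18 (SE; edgeR adjusted p = 0.060). The groups did not overlap for any of these 3 genes. Here and elsewhere, absence of overlap is a description only, since its share over all genes was not counted.

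The other members of the HSP70 cycle did not pass the test in bone cells. Hspa8 had 787 and 878 CPM in mutant and 523 and 603 CPM in control bone cells (log2 fold change 0.37 ± 0.15 SE, edgeR adjusted p = 0.093). Dnajb1 had 45.0 and 49.3 CPM in mutant and 24.1 and 46.8 CPM in control bone cells, and the HSP110 gene Hsph1 had 8.75 and 17.1 CPM in mutant and 11.5 and 15.6 CPM in control bone cells. For Dnajb1 mutant 1 lay just below control 2, and for Hsph1 mutant 1 was the lowest library and mutant 2 the highest; only Hspa8 had groups that did not overlap. Bone cells of the control libraries are few: without control 1 or without control 2 no member passed in the 3 remaining libraries, where 1 and 112 genes passed in all, while Hspa1a kept a log2 fold change between 1.61 and 2.13 over the 4 omissions. DESeq2 called 3 of the 9, Hspa1a, Hspa1b and Hspb1.

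**Figure D2:**
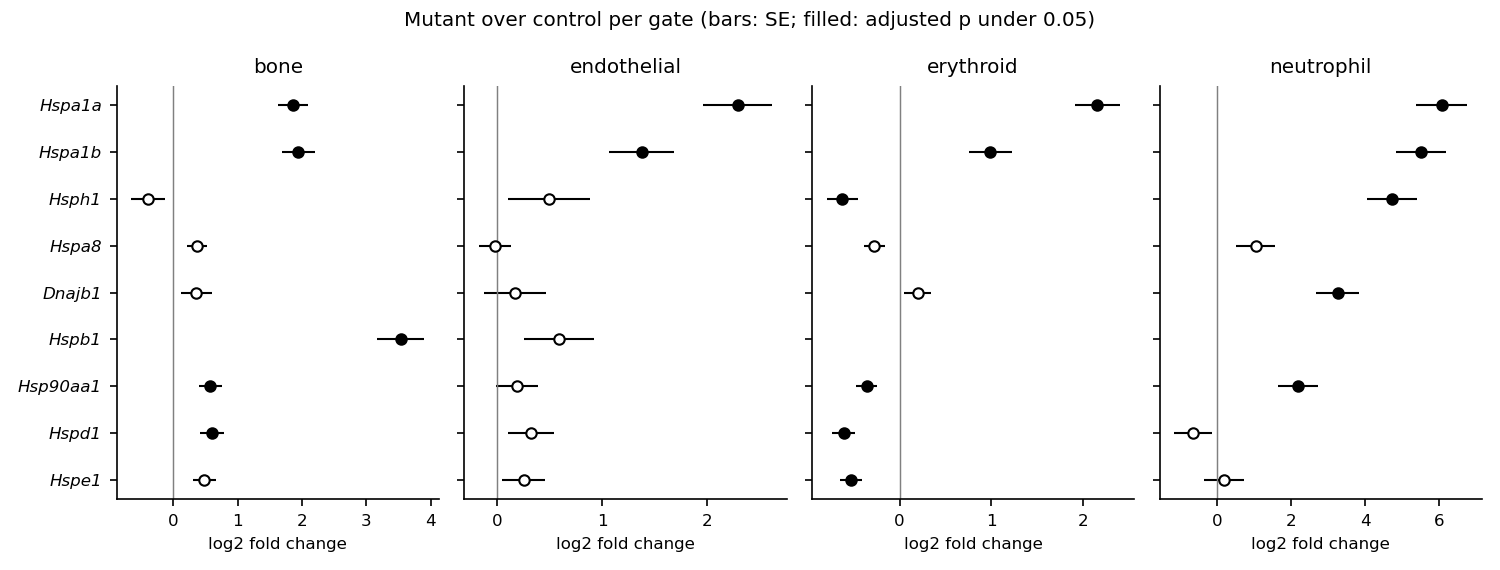
Log2 fold change, mutant over control, of each chaperone gene in 4 cell classes; points are edgeR estimates, bars their standard errors, filled points passed the adjusted threshold of 0.05, and x axes differ. Hspb1 could not be tested in erythroid cells or neutrophils. Hspa1a and Hspa1b are filled in all 4 panels, while Hspd1 and Hsp90aa1 are filled to the right in bone and to the left in erythroid cells.

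Most of the Hspa1a, Hspa1b and Hspb1 RNA of mutant bone cells sat in one bone subtype, the cells rich in Mepe and Dmp1, genes of the osteocyte lineage (at least 1000 CPM of the pair). In this subtype Hspa1a had 451 and 337 CPM in mutant 1 and mutant 2, against 85.7 and 0 CPM in control 1 and control 2. Hspa1b had 305 and 270.1 CPM in mutant and 79.4 and 0 CPM in control cells of the subtype. Of the subtype's UMIs of Hspa1a and Hspa1b together, 4 cells held 39.8% in mutant 1 and 3 cells held 52.7% in mutant 2. Hspb1 had 161 and 47.1 CPM in mutant and 0 and 10.5 CPM in control cells. The groups did not overlap for these 3 genes, but the subtype held 408 and 307 mutant cells against 27 and 5 control cells, too few to test. The 0 in control 2 allows up to 31.5 CPM of Hspa1a, and the 0 in control 1 up to 6.27 CPM of Hspb1 (3 counts of the cells' total).

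The Mepe/Dmp1-high cells were 23.0% and 23.9% of mutant bone cells and 10.5% and 12.2% of control bone cells, and so were the smaller part of every library. They held 72.6% and 52.4% of the Hspa1a UMIs of mutant bone cells, 67% and 52.2% of their Hspa1b UMIs and 88.5% and 65.6% of their Hspb1 UMIs. They held 20.9% and 18.3% of the Hsp90aa1 UMIs of mutant bone cells, 23.2% and 16.1% of Dnajb1 and 22.4% and 16.2% of Hsph1, near or below their share of cells. In control 1 they held 24.1% of the Hspa1a UMIs, and in control 2 none of 21. These cells were shallower than other bone cells, with a median of 11614 and 9168 UMIs in mutant and 12993 and 17182 UMIs in control libraries. Of all bone cell UMIs they held 6515266 of 37253267 in mutant 1 and 3971872 of 26395993 in mutant 2. That share was smaller than their share of cells. The shares of Hsp90aa1, Dnajb1 and Hsph1 lay above it in both mutant libraries. In the mutant libraries 93 and 59 bone cells lay up to 2-fold above the 1000 CPM limit and 133 and 109 up to 2-fold below it.

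In the other subtypes mutant Hspa1a was lower than in Mepe/Dmp1-high cells. In Bglap-high cells, rich in osteocalcin, Hspa1a had 35.5 and 59.0 CPM in mutant and 15.0 and 34.8 CPM in control libraries, with mutant 1 only just above control 2. In the Bglap-low cells with Col12a1 and Olfml2b it had 35.6 and 63.6 CPM in mutant and 39.3 and 0 CPM in control libraries, so the groups overlapped. In the intermediate cells it had 36.7 and 42.9 CPM in mutant and 19.4 and 7.39 CPM in control libraries. Only the Bglap-high subtype had at least 20 cells in every library: there 5 of the 8 members tested rose and 0 fell, where 9.16% of 10019 genes rose and 5.65% fell. They were Hspa1a (0.92 ± 0.26 SE, edgeR adjusted p = 0.027), Hspa1b, Hsp90aa1, Hspd1 and Hspe1. Hspa1b had 32.5 and 44.0 CPM in mutant and 4.65 and 5.22 CPM in control Bglap-high cells, without overlap, and rose by 2.79 ± 0.35 (SE; edgeR adjusted p = 6.0e-05), on 9 and 3 UMIs in the control libraries.

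When the Mepe/Dmp1-high cells were left out of the bone gate, a choice made after seeing the data, the Hspa1a log2 fold change was 0.66 ± 0.24 (SE; edgeR adjusted p = 0.031), against 1.86 with them. Hspa1a then stood at 36.0 and 54.4 CPM in mutant and 22.6 and 24.3 CPM in control bone cells, still without overlap. Hspb1 no longer passed (0.93 ± 0.54 SE, edgeR adjusted p = 0.21), whereas Hspa1b (0.96 ± 0.26 SE), Hsp90aa1 (0.56 ± 0.19 SE), Hspd1 (0.61 ± 0.19 SE) and Hspe1 (0.50 ± 0.19 SE) did. The Hsp90aa1 and Hspd1 differences were thus about as large without this subtype, and those of Hspa1a, Hspa1b and Hspb1 were smaller.

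**Figure D3:**
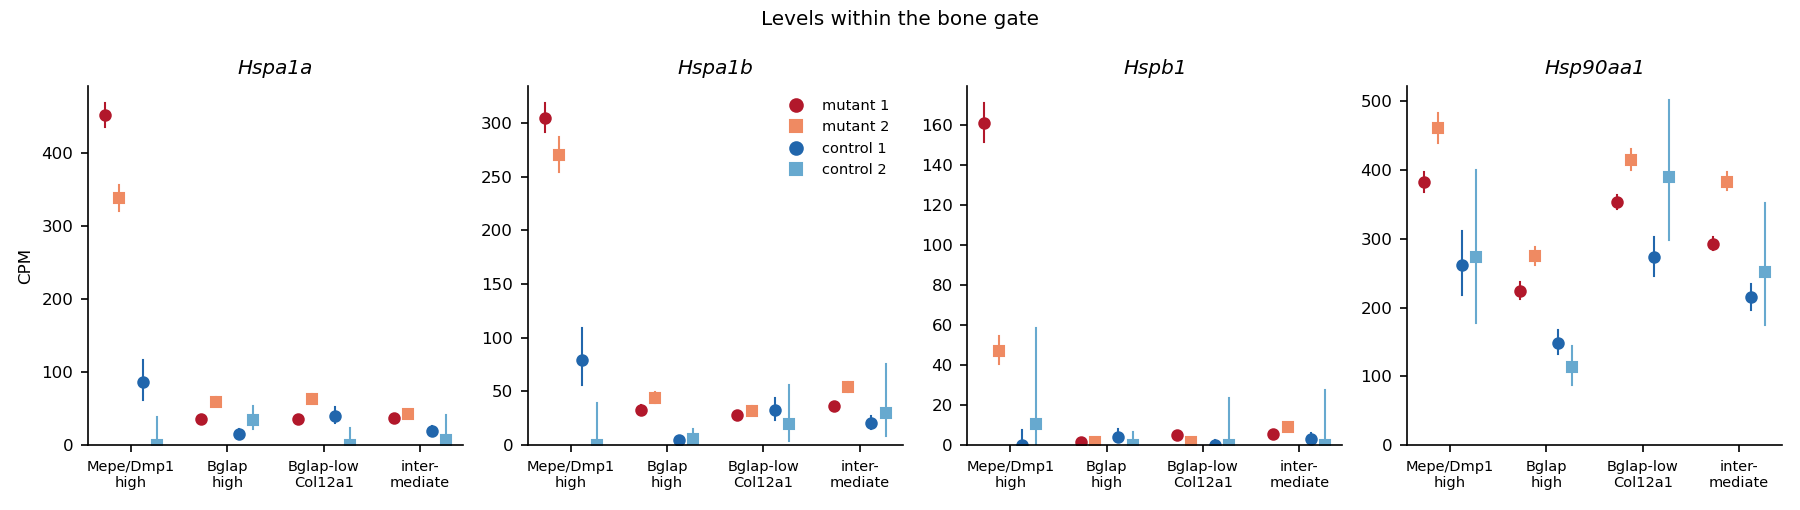
CPM of Hspa1a, Hspa1b, Hspb1 and Hsp90aa1 in the 4 bone subtypes, by library (mutant red and orange, control blue); bars are exact Poisson 95% intervals that cover counting error only. The Mepe/Dmp1-high mutant cells reach 451 and 337 CPM of Hspa1a, while Hsp90aa1 shows no such concentration in 1 subtype.

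The RNA was also unevenly spread over cells. The top 1% of bone cells by Hspa1a and Hspa1b UMIs, 17 and 12 cells, held 48.1% and 50.4% of these UMIs in mutant 1 and mutant 2, against 19.6% and 45.2% in the top 2 and 1 cells of control 1 and control 2. A single cell held 671 UMIs of the pair in mutant 1 and 711 in mutant 2, both of them Mepe/Dmp1-high. At full depth 41.9% and 39.1% of mutant Mepe/Dmp1-high cells held a UMI of the pair, against 36.4% and 43.0% of mutant Bglap-high cells. Cells with at least 200 CPM of the pair were 30.1% and 22.8% of the former and 9.57% and 12.9% of the latter, which were deeper. After each cell was thinned to 1000 UMIs, 9.69% and 9.56% of mutant bone cells held a UMI of the pair, against 3.50% of control 1 cells and 0 of 41 control 2 cells, which allows a share of up to 7.32% at that thinned depth only, since 8 of the 41 held a UMI of the pair unthinned. The exact 95% intervals were 8.35 to 11.2% and 8.01 to 11.3% in the mutant libraries and 1.61 to 6.54% in control 1. Unthinned shares were 33.6% and 38.6% in mutant and 24.9% and 19.5% in control bone cells, at median depths of 20392 and 17971 UMIs in mutant and 23585 and 23660 in control cells. In erythroid cells of the same libraries thinned shares were 2.27% and 1.40% in mutant libraries, 5.0% in control 1 and 0 of 2652 cells in control 2, which allows up to 0.113%. The unthinned erythroid shares were 9.09% and 18.5% in mutant and 33.4% and 3.51% in control libraries, at median depths of 12874 and 19064 UMIs in mutant and 23160.0 and 31948 in control cells. Mutant bone shares were thus above the erythroid share of their own library, while the thinned share of control 1 was below its erythroid share. Control bone cells did hold the pair: unthinned shares in control 2 were 19.5% in bone against 3.51% in erythroid cells, and the pair was at 32.3 CPM in bone and 1.79 CPM in erythroid cells of that library.

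**Figure D4:**
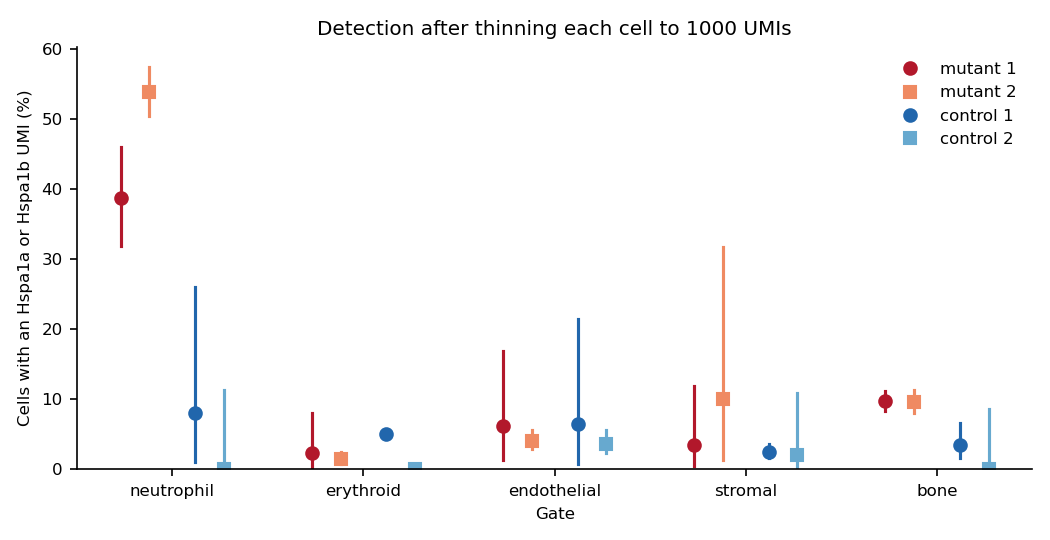
Share of cells with at least 1 Hspa1a or Hspa1b UMI after thinning each cell to 1000 UMIs, by class and library; bars are exact (Clopper-Pearson) 95% intervals that cover counting error only. Mutant neutrophils stand at 38.7% and 53.9% and mutant bone cells at 9.69% and 9.56%, while endothelial shares of the 4 libraries lie between 3.64% and 6.45%.

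Summed over mesenchyme (stromal, bone and chondrocyte gates), 7 of the 9 genes rose and 0 fell, where 13.8% of 13975 genes rose and 13.0% fell. Hspa1a had 107 and 99.7 CPM in mutant and 18.7 and 15.7 CPM in control mesenchyme. Hspb1 had 31.8 and 12.3 CPM in mutant and 15.8 and 30.2 CPM in control mesenchyme, and overlapped. In stromal cells Hspb1 had 34.5 and 22.4 CPM in mutant and 20.6 and 16.3 CPM in control libraries. In the few chondrocytes it had 7.73 and 109.6 CPM in 10 and 18 mutant cells. It had 271 and 199 CPM in 15 and 10 control chondrocytes. Mutant mesenchyme was nearly all bone cells and control mesenchyme largely stromal cells, so genotype and cell makeup cannot be told apart in this sum.

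In stromal-gated cells, Hspa1a had 12.5 CPM in mutant 1 and 469.8 CPM in mutant 2, against 10.6 and 0 CPM in control 1 and control 2. Mutant 2 stood alone: 2 of its 20 stromal cells held all 160 UMIs of the pair, 111 of them in 1 cell, and without the 6 stromal cells that held at least 1000 CPM of the neutrophil genes S100a8 and S100a9 the pair was at 0. Neither Hspa1a nor Hspa1b passed the filter on low counts there. Of the 7 members tested in stromal cells, Hspd1 (0.96 ± 0.24 SE), Hspe1 (0.93 ± 0.26 SE) and Hsp90aa1 (1.15 ± 0.30 SE) rose and 0 fell, where 10.7% of 7319 genes rose and 9.92% fell. Hsp90aa1 had 296 and 694 CPM in mutant and 225 and 215 CPM in control stromal cells, with mutant 2 far the highest; DESeq2 called only Hsp90aa1 of the members in this class. The 8 neutrophil markers summed to 32.9 and 5090 CPM in mutant and 393 and 16.3 CPM in control stromal cells, and neutrophils of mutant 2 held 1994 CPM of Hsp90aa1; their part in the result was not tested.

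Erythroid cells, the precursors of red blood cells, lie outside the limb mesenchyme, and in them members differed in both directions. Of the 8 genes tested, 2 rose, where 6.97% of 12519 genes rose, and 4 fell, where 1.04% fell. The median log2 fold change was -0.32 over the 8 genes and -0.05 over all genes.

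Hspa1a had 26.2 CPM in mutant 1 and 10.5 CPM in mutant 2 erythroid cells, against 32.2 CPM in control 1 and 0.608 CPM in control 2. Hspa1b had 15.6 and 6.70 CPM in mutant and 43.7 and 1.18 CPM in control erythroid cells. Both genes overlapped between genotypes, with control 1 the highest library and control 2 the lowest. Within batch 1 the log2 ratio of mutant to control was -0.30 for Hspa1a and -1.49 for Hspa1b, and within batch 2 it was 4.11 and 2.51. The fit gave Hspa1a a log2 fold change of 2.15 ± 0.24 (SE; edgeR adjusted p = 2.2e-16) and Hspa1b one of 0.99 ± 0.23 (SE; edgeR adjusted p = 0.00070). In erythroid cells, as in endothelial cells and neutrophils, the estimated prior degrees of freedom were infinite, so that genes of like abundance shared 1 spread and the distance between the 2 control libraries in Hspa1a, 32.2 and 0.608 CPM, had little part in its standard error. DESeq2 called neither gene (adjusted p = 0.83 for Hspa1a), and without mutant 1 or without control 2 the Hspa1a fold change was negative, at -0.74 and -0.86.

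Hspd1, Hspe1, Hsp90aa1 and Hsph1 were lower in mutant erythroid cells. Hspd1 had 265 and 635 CPM in mutant and 633 and 884 CPM in control erythroid cells, and fell by 0.61 ± 0.12 on the log2 scale (SE; edgeR adjusted p = 2.4e-05). Hspe1 had 387 and 619 CPM in mutant and 832 and 848 CPM in control erythroid cells, and fell by 0.53 ± 0.12 (SE; edgeR adjusted p = 0.00031). Hsp90aa1 had 806 and 1371 CPM in mutant and 1405 and 1796 CPM in control erythroid cells, and fell by 0.35 ± 0.11 (SE; edgeR adjusted p = 0.028). For Hspe1 and Hsp90aa1 both mutant libraries lay below both controls, and for Hspd1 mutant 2 reached control 1. The HSP110 gene Hsph1 had 18.4 and 47.1 CPM in mutant and 43.3 and 73.9 CPM in control erythroid cells, overlapping, and fell by 0.62 ± 0.17 (SE; edgeR adjusted p = 0.0048). Hspa8 had 926 and 1759 CPM in mutant and 1747 and 1919 CPM in control erythroid cells (edgeR adjusted p = 0.13), and Dnajb1 had 71.5 and 80.9 CPM in mutant and 83.6 and 74.4 CPM in control cells (edgeR adjusted p = 0.58).

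The erythroid cells differed in maturity between genotypes. Hbb-bs, an adult beta-globin gene that rises as red cells mature, was at 126717 and 68445 CPM in mutant and 20738 and 19049.7 CPM in control erythroid cells. Splitting the class at 5% globin UMIs, a choice made after seeing the data, left 23 and 321 mutant and 2504 and 1844 control cells with little globin. Among them Hspd1 was at 535 and 1003 CPM in mutant and 759 and 1023 CPM in control libraries (log2 fold change -0.29 ± 0.14 SE, edgeR adjusted p = 0.74), and 1 of the 8 members passed, Hspa1a, whose groups overlapped at 17.5 and 7.97 CPM in mutant and 37.4 and 0.655 CPM in control libraries. In the globin-rich cells Hspd1 was at 48.4 and 86.6 CPM in mutant and 141 and 147 CPM in control libraries. It fell by 0.67 ± 0.20 (SE, edgeR adjusted p = 0.021), and Hspe1 fell by 0.69 ± 0.19 (SE, edgeR adjusted p = 0.012). Hspa1a (3.30 ± 0.36 SE, edgeR adjusted p = 2.0e-17) and Hspa1b (2.21 ± 0.37 SE, edgeR adjusted p = 3.8e-07) passed there as higher. Their sum overlapped, at 51.0 and 22.4 CPM in mutant and 31.8 and 0.504 CPM in control globin-rich cells. In mutant and control libraries alike, Hspd1 was several times higher in cells with little globin than in globin-rich cells. The part of maturity in the lower erythroid levels was not tested further.

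Whether the genotype difference was unequal between classes of the same libraries was tested with a class-by-genotype term that takes out any shift common to both classes of a library. Between bone and erythroid cells, 4 of the 9 genes differed in the direction of bone, where 5.66% of 14210 genes did, and 0 in the other, where 5.36% did (11.0% in either). The differences in log2 fold change, bone minus erythroid, were 3.07 ± 0.46 for Hspa1b, 1.46 ± 0.37 for Hspd1, 1.26 ± 0.37 for Hspe1 and 1.18 ± 0.38 for Hsp90aa1 (SE; edgeR adjusted p = 3.7e-09, 0.0016, 0.0093 and 0.024). The median over all genes was 0.21, so the last 3 exceed it by about 1 on the log2 scale. Hspa1a did not pass (1.14 ± 0.45 SE, edgeR adjusted p = 0.089), and without control 1 the Hspa1b difference was -0.31. The Hspa1b call therefore rests on control 1.

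In endothelial cells, the lining cells of vessels, 2 of the 9 genes rose and 0 fell, where 2.69% of 10822 genes rose and 3.06% fell (5.75% in either direction). Hspa1a had 21.2 CPM in mutant 1 and 86.1 CPM in mutant 2, against 11.1 CPM in control 1 and 16.7 CPM in control 2 (2.29 ± 0.33 SE, edgeR adjusted p = 2.5e-10). Hspa1b had 21.2 and 71.6 CPM in mutant and 44.5 and 21.6 CPM in control endothelial cells, with mutant 1 the lowest library (1.38 ± 0.31 SE, edgeR adjusted p = 0.00037). In batch 1 the values rest on 7 UMIs of each gene in mutant 1, and on 2 and 8 UMIs in control 1. DESeq2 called neither, and without mutant 2 the Hspa1b fold change was -0.36.

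Endothelial cells of mutant 2 also held the most neutrophil RNA. The 8 neutrophil markers summed to 2011 CPM in mutant 2 endothelial cells and 12.1 CPM in mutant 1, against 0 and 6.13 CPM in control 1 and control 2; all 8 were at 0 in control 1, and 3, Elane, Mpo and Mmp8, in control 2. S100a8, an abundant neutrophil gene, was at 3212 CPM in endothelial cells of mutant 2, and neutrophil RNA of the same library in that amount would carry 65.0 of the 86.1 CPM of Hspa1a. Without endothelial cells that held at least 1000 CPM of S100a8 and S100a9, a limit chosen after seeing the data, 0 of the 9 genes passed, with Hspa1a at 0.67 ± 0.40 (SE; edgeR adjusted p = 0.61). In bone cells the same reckoning gave 0.392 of 109 CPM in mutant 1 and 11.1 of 96.9 CPM in mutant 2. Without bone cells past that limit the bone Hspa1a log2 fold change was 1.76 ± 0.24 (SE, edgeR adjusted p = 3.6e-06), against 1.86 with them. In erythroid cells of mutant 2 the reckoning gave 7.22 of 10.5 CPM of Hspa1a and 5.95 of 6.70 CPM of Hspa1b. In mutant 1 it gave 0.0858 of 26.2 CPM of Hspa1a. Without erythroid cells past that limit the erythroid Hspa1a log2 fold change was 1.81 ± 0.24 (SE), against 2.15 with them. The part of neutrophil RNA in these differences was not tested.

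**Figure D5:**
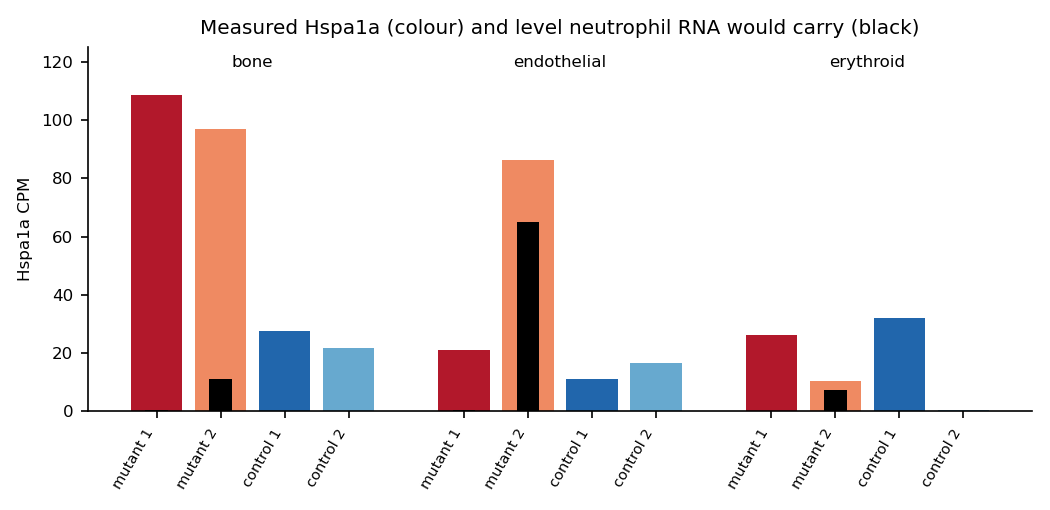
Hspa1a CPM in bone, endothelial and erythroid cells of each library (coloured bars), and in black the CPM that neutrophil RNA of the same library would carry at the S100a8 level of the class. The black bar reaches 65.0 of 86.1 CPM in endothelial cells of mutant 2, 11.1 of 96.9 CPM in its bone cells and 7.22 of 10.5 CPM in its erythroid cells.

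Of the other endothelial values, Hspb1 had 97.0 and 21.9 CPM in mutant and 5.56 and 21.1 CPM in control cells, the highest in mutant 1 and on 32 UMIs there, and did not pass. Between bone and endothelial cells, 0 of the 9 genotype differences passed, where 4.27% of 12895 genes did (1.79% toward bone and 2.48% toward endothelial cells); Hspa1b alone had an unadjusted p under 0.05 (0.011), and DESeq2 called 0 too. The bone minus endothelial difference was -0.07 ± 0.51 for Hspa1a (SE), an error too wide to tell bone from endothelial cells. Without the S100a8/S100a9 cells, however, 1 difference passed, that of Hspa1b at 2.02 ± 0.49 (SE; edgeR adjusted p = 0.0032), while Hspa1a was at 0.92 ± 0.50 (SE; edgeR adjusted p = 0.42). Between endothelial and erythroid cells 1 gene passed, Hspb1, in the direction of erythroid (-3.59 ± 0.94 SE, edgeR adjusted p = 0.0059), where 3.87% of 12794 genes did so. Erythroid cells held 0 and 14 Hspb1 UMIs in mutant and 4 and 1 in control libraries, which leaves that fold change without a measured base.

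Neutrophils, innate immune cells of the blood, carried the largest fold changes of Hspa1a and Hspa1b among the classes tested. Of the 8 genes tested 5 rose and 0 fell, where 6.86% of 5365 genes rose and 3.97% fell; the class was added to the tests after seeing the data. Hspa1a had 1156 and 2398 CPM in mutant neutrophils, against 107 and 0 CPM in control neutrophils (6.07 ± 0.69 SE, edgeR adjusted p = 2.1e-15). Hspa1b had 1073 and 1976 CPM in mutant and 161 and 0 CPM in control neutrophils (5.51 ± 0.68 SE). No control library approached the mutant range, and 87 of the 143 UMIs of the pair in control 1 came from 1 cell. The 0 in control 2 allows up to 7.51 CPM, and fitted fold changes against such a library depend on the fit's prior count. With 1 library left out, that of Hspa1a lay between 4.66 (without control 2) and 15.1 (without control 1). DESeq2 called neither Hspa1a (adjusted p = 0.12) nor Hspa1b (adjusted p = 0.16). The B-lineage, megakaryocyte and macrophage classes had under 20 cells in a library and were not tested. In B-lineage cells (15 in mutant 1) the pair was at 339 and 408 CPM in mutant and 81.9 and 90.4 CPM in control libraries. In megakaryocytes it overlapped, at 0 and 57.2 CPM in mutant and 8.25 and 0 CPM in control libraries. Macrophages numbered at most 10 in a library.

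The HSP70 helpers Hsph1 and Dnajb1 and the HSP90 gene Hsp90aa1 also rose in neutrophils. Hsph1 had 95.6 and 196 CPM in mutant and 13.1 and 0 CPM in control neutrophils (4.73 ± 0.68 SE, edgeR adjusted p = 2.2e-09). Dnajb1 had 148 and 247 CPM in mutant and 31.8 and 22.5 CPM in control neutrophils (3.26 ± 0.58 SE, edgeR adjusted p = 2.5e-06). Hsp90aa1 had 1022 and 1994 CPM in mutant and 558 and 331 CPM in control neutrophils (2.19 ± 0.54 SE, edgeR adjusted p = 0.0018). DESeq2 called Dnajb1 and Hsp90aa1 but not Hsph1 (adjusted p = 0.13), and without control 1 the Hsph1 log2 fold change was 11.6. Hsp90aa1 did not pass without mutant 1 (edgeR adjusted p = 0.38) or without mutant 2 (edgeR adjusted p = 0.69), and Dnajb1 did not without mutant 2 (edgeR adjusted p = 0.051). The constitutive Hspa8 had 776 and 1242 CPM in mutant and 929 and 461 CPM in control neutrophils, overlapping, and did not pass. The mitochondrial genes did not pass either, with Hspd1 at 56.0 and 83.5 CPM in mutant and 200.4 and 108 CPM in control neutrophils. The set that rose in neutrophils thus differed from that in bone cells by name: Hsph1 and Dnajb1 passed in neutrophils and not in bone cells, while Hspd1 and Hspb1 passed in bone cells; these contrasts between bone cells and neutrophils were not tested themselves.

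Control neutrophils were few and of another stage in control 1. Elane, a gene of early granulocytes, was at 1028 and 531 CPM in mutant and 2849 and 1282 CPM in control neutrophils, and Retnlg, a gene of late ones, at 11270 and 8961 CPM in mutant and 82.4 and 6531 CPM in control neutrophils. Among late neutrophils alone (Mmp8 and Retnlg at 500 CPM or more, Elane and Mpo under 1000 CPM, limits chosen after seeing the data) Hspa1a had 1324 and 2753 CPM in 181 and 724 mutant cells, against 0 CPM in 3 and 22 control cells. Those zeros allow up to 123 CPM in control 1 and 18.0 CPM in control 2. The unequal genotype effect between neutrophils and erythroid cells passed for 5 of the 8 genes in the direction of neutrophils, where 1.75% of 10453 genes did, 2.5% went toward erythroid cells and 4.25% either way.

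Free RNA was read from barcodes of 10 to 100 UMIs, which the mutant 1 file does not list. Hspa1a there was at 356 CPM in mutant 2, against 74.3 CPM in control 1 and 2.61 CPM in control 2, and so it differed between libraries in the same order as in their neutrophils. Hbb-bs in bone cells was taken as a measure of free RNA. By it, Hspa1a from free RNA would be 10.9 CPM in bone cells of mutant 2, 0.677 in control 1 and 0.0283 in control 2. These values take all Hbb-bs in bone cells as free RNA, and there is none for mutant 1. They are no upper limit. For Hbb-bs, bone cells of mutant 2 held 3.06% of the free level. For S100a8 they held a larger fraction, at 550 CPM against 4914 CPM in free RNA. The part of free RNA in the bone result was not tested further.

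Other lists of the stress response were examined in the same fits. Of the 16 immediate early genes, which like HSF1 targets can respond to tissue handling, 1 rose and 3 fell in bone cells, with a median log2 fold change of -0.32 over the list and 0.04 over all genes. The 2 extremes in bone cells were Nr4a1, at 18.3 and 19.3 CPM in mutant and 4.53 and 7.28 CPM in control libraries (1.68 ± 0.31 SE), and Fosb, at 68.2 and 135 CPM in mutant and 122 and 462 CPM in control libraries (-1.50 ± 0.23 SE), with overlap. In erythroid cells 10 of the 16 rose and 0 fell, with a median of 1.11 over the list and -0.05 over all genes; the 2 largest, Nr4a1 and Atf3, were at 2.12 CPM or less in every library. In neutrophils 10 of the 14 tested rose and 0 fell, with a median of 2.76 over the list and 0.05 over all genes. Of all genes 12.4% rose and 9.22% fell in bone cells, while 6.97% rose in erythroid cells and 6.86% in neutrophils. The 8 bone markers moved the same way: they summed to 427 and 194 CPM in mutant and 17.2 and 9.0 CPM in control erythroid cells, and to 393 and 453 CPM in mutant and 11.2 and 10.0 CPM in control neutrophils. Their part in these results was not tested, nor was the difference of the list between classes.

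Among 16 further stress-inducible chaperone and stress genes, 1 rose and 4 fell of 15 tested in bone cells. This count and the next stand against 12.4% of all genes that rose and 9.22% that fell in bone cells. Hmox1, the heme oxygenase gene, rose, at 20.6 and 25.2 CPM in mutant and 8.89 and 7.28 CPM in control bone cells (1.19 ± 0.27 SE). Hspa2, an HSP70 gene best known from the testis, fell, at 9.31 and 9.09 CPM in mutant and 29.7 and 32.3 CPM in control bone cells (-1.92 ± 0.24 SE). Of 15 constitutive cytosolic chaperones 2 rose in bone cells, St13, at 152 and 135 CPM in mutant and 101 and 67.6 CPM in control cells, and Hsp90ab1, the constitutive HSP90, at 1983 and 1998 CPM in mutant and 991 and 1046 CPM in control cells (0.77 ± 0.13 SE). In erythroid cells Hsp90ab1 went the other way, at 1339 and 2309 CPM in mutant and 2414 and 2919 CPM in control cells (-0.35 ± 0.11 SE), as its inducible relative Hsp90aa1 did.

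Of the 14 genes of the cytosolic chaperonin TRiC and prefoldin, 0 passed in bone cells, and 1 of 12 further mitochondrial proteostasis genes fell, Yme1l1. Of the 16 chaperones of the endoplasmic reticulum and its stress response, 4 rose and 2 fell in bone cells. Among all genes there, 12.4% rose and 9.22% fell. Hspa5, the BiP gene, was at 1057 and 1437 CPM in mutant and 428 and 508 CPM in control bone cells (1.20 ± 0.15 SE), and Pdia4 at 209 and 235 CPM in mutant and 90.7 and 80.1 CPM in control bone cells (1.17 ± 0.20 SE). Xbp1, a transcription factor of that response, was lower, at 90.4 and 127 CPM in mutant and 198 and 212 CPM in control bone cells (-1.14 ± 0.19 SE). In endothelial cells 0 genes of these further lists rose and 3 fell, Hmox1, Xbp1 and Fos, named after their values were seen.

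The genes most alike in pattern were found by Pearson's r of log2(CPM + 10) over 26 sums of library and class with at least 20 cells, among 6400 genes; the sums share libraries and depth, so r is a description. Hspa1a was most like Hspa1b (r = 0.94), and next Csta2 (0.70) and Msmo1 (0.70). Hsph1 and Dnajb1 were both most like Hsp90aa1 (r = 0.73 and 0.70). The others paired with genes outside the family, Hspb1 with Rtl8a (0.92), Hsp90aa1 with Cks2 (0.91), Hspd1 with Nolc1 (0.95), Hspe1 with Eef1e1 (0.96) and Hspa8 with Snrpc (0.82).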

How the data were processed

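UMI counts of 3′ droplet libraries (10x Genomics v3.1) were deposited by the authors as whole numbers per gene and barcode, with no normalization (raw counts, per the file headers). Cell Ranger versions, on mm10, are those of the submitters' processing notes. They are 5.0.1 for mutant 1 and control 1 (batch 1) and 6.1.2 for mutant 2 and control 2 (batch 2). Of the 4 file headers 3 name another version, the same for mutant 2 and both controls. The headers thus do not give this pairing. The sources used here give no counting annotation. The file of mutant 1 lists 3352 called barcodes, the others all barcodes. Replicate numbers follow deposition order and pair nothing. The genes and lists were chosen with earlier results of these data known.

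Kept cells had at least 1000 UMIs, 500 genes and at most 10% mitochondrial UMIs. A marker counted as detected at 1 UMI and 50 CPM, and a cell took a class with at least 3 of 8 markers and 2 more than any other class. Doublets stayed in; as an alternative the top Scrublet scores (scanpy 1.11.5), 0.8% per 1000 cells, were removed. Each class was summed within each library, and sums were tested where every library held at least 20 cells, with edgeR 4.0.16 in R 4.3.3 (TMM, filterByExpr, quasi-likelihood, batch and genotype as terms). With 1 residual degree of freedom the spread was moderated over all genes, with 16.8 prior degrees of freedom in bone cells and an infinite estimate in endothelial, erythroid and neutrophil cells. With 2 libraries per genotype an exact permutation test could not go below a p of 0.333, so none is given. Groups without overlap are likewise a description only, and their share over all genes was not counted. Alternatives were DESeq2 1.42.0, library totals, no low-count filter, no batch term, other cell filters and gates, and each library left out.

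All members are named. From each list the genes named in text are at most the 2 highest and 2 lowest fold changes past the threshold in bone and erythroid cells; the 3 endothelial genes, and S100a8, Hbb-bs, Elane, Retnlg and Lepr, were chosen after their values were seen. The method was tested on simulated data. Of 4-fold changes 88% were recovered in bone cells, 96% in erythroid cells and 53.5% in the bone minus erythroid comparison. Of 2-fold changes 14% were recovered in bone and 26% in erythroid cells. The simulation gave every gene the same spread and no batch difference. It therefore does not cover genes whose libraries of the same genotype lie far apart. Its spread was also set larger than the common dispersion fitted here, 0.0229 in bone and 0.013 in erythroid cells. The recovered shares thus do not measure the power of the reported fits. False calls made up 0.971% of simulated calls in bone cells, 3.17% in erythroid cells and 3.6% in bone minus erythroid. Promoter windows are from RefSeq, and 32158 of 32285 gene identifiers were found in GENCODE M21. Intervals cover counting error only.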

Additional observations from a re-analysis of the deposited data

Results flagged for a closer look

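A genotype difference that was unequal between classes of the same libraries was found for 10 gene and class pairs by the class-by-genotype test (edgeR's quasi-likelihood test, Benjamini-Hochberg adjusted). Between bone and erythroid cells, in log2 units of mutant over control, the difference of differences was 3.07 for Hspa1b, 1.46 for Hspd1, 1.26 for Hspe1 and 1.18 for Hsp90aa1. Hspd1 and Hsp90aa1 passed as higher in mutant bone cells and as lower in mutant erythroid cells, while Hspe1 passed as lower in erythroid cells and did not pass in bone cells. The mutant erythroid cells held more globin RNA, whose part in the result was not tested. Between neutrophils and erythroid cells the difference was 6.13 for Hspa1b, 5.64 for Hspa1a, 5.46 for Hsph1, 3.24 for Dnajb1 and 2.65 for Hsp90aa1, with 25 and 31 control neutrophils behind it. Between endothelial and erythroid cells it was -3.59 for Hspb1, a gene with at most 14 UMIs in the erythroid cells of any library.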

How the results depend on the processing

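Alternatives recomputed 461 values of single genes: 338 kept direction and side of the threshold, 114 no longer passed and 9 changed sign. The sign changes were Hspa1b in endothelial cells without mutant 2 (-0.36; up to 1.55 without mutant 1); Hspa1b in erythroid cells with no batch term (-1.22), without mutant 1 (-1.83), without mutant 2 (-0.18) and without control 2 (-2.13; 3.46 without control 1); Hspa1a in erythroid cells without mutant 1 (-0.74) and without control 2 (-0.86; 5.16 without control 1); Hspa1b, bone minus erythroid, without control 1 (-0.31; up to 3.81 without control 2); and Hspb1, endothelial minus erythroid, without mutant 2 (5.46; down to -4.94 without control 1). Counts of members passing in bone cells, 5 as reported, were 3 with DESeq2 and 3 with no batch term, and 0 to 3 with 1 library left out. In mesenchyme the 7 became 4 with library totals and 4 with no batch term, and 2 to 4 with 1 library left out. In endothelial cells the 2 became 0 with DESeq2, 0 with no batch term, 1 with Scrublet calls removed and 0 without S100a8/S100a9 cells, and 0 to 2 with 1 library left out. In erythroid cells the 6 became 2 with DESeq2, 0 with no batch term and 1 in cells with globin under 5%, and 1 to 2 with 1 library left out. In neutrophils the 5 became 2 with DESeq2 and 2 with no batch term, and 3 to 7 with 1 library left out. In stromal cells the 3 became 1 with DESeq2, 5 without the low-count filter and 0 with no batch term, and 1 to 4 with 1 library left out. Bone minus erythroid, 4 as reported, was 2 with DESeq2 and 1 to 4 with 1 library left out. Bone minus endothelial, 0 as reported, was 1 with library totals, 1 with Scrublet calls removed and 1 (Hspa1b) without S100a8/S100a9 cells, and 0 to 1 with 1 library left out. Endothelial minus erythroid, 1 as reported, was 0 with DESeq2 and 3 with library totals, and 1 to 3 with 1 library left out. Neutrophil minus erythroid was 4 to 6 with 1 library left out. Unthinned, the mutant minus control share of cells with the HSP70 pair was 13.9 percentage points in bone cells, 2.75 in endothelial and -4.70 in erythroid cells, against 7.88, 0.0450 and -0.665 thinned. Library totals moved the median of all genes to 0.22 in bone and -0.25 in erythroid cells. Leaving out a library also drops the batch term; the causes of these changes were not tested. Calls over all genes with edgeR, DESeq2 and no batch term numbered 2777, 1182 and 1094 in bone cells, 1003, 589 and 241 in erythroid cells, 622, 138 and 70 in endothelial cells, 581, 99 and 53 in neutrophils, 1509, 404 and 574 in stromal cells and 3747, 2431 and 2141 in mesenchyme; bone minus erythroid went to 873 with DESeq2 against 1566, and bone minus endothelial to 159 against 551. Library totals changed the split of higher and lower calls to 2259 and 759 in bone cells (1591 and 1186 as reported), 557 and 227 in erythroid cells (873 and 130), 183 and 457 in neutrophils (368 and 213), 887 and 2866 in mesenchyme (1924 and 1823), 694 and 1078 in stromal cells (783 and 726), 455 and 229 for bone minus endothelial (231 and 320) and 1459 and 717 for bone minus erythroid (804 and 762). No paired analysis was possible because the replicate numbers follow deposition order and the labels pair no mice; the batch term of the reported fits does set 1 mutant against 1 control library within each batch, so the counts with no batch term are those without that block. Stromal cells without S100a8/S100a9 cells or under the stricter cell filter, and 3 bone subtypes, had under 20 cells in a library and were not run. The settings on S100a8/S100a9, globin bands, Mepe/Dmp1-high cells, neutrophils and stromal cells were chosen after seeing the data.

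Small sums limit several classes: 41 bone cells in control 2, 25 and 31 control neutrophils, 20 stromal cells in mutant 2, and 7 and 2 Hspa1a UMIs in endothelial cells of mutant 1 and control 1.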
